A study of Mus musculus with 4 samples.

Results

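The regions described here are the NR6A1 binding peaks around 4 genes of the connective tissue matrix, Col1a1, Col1a2, Col3a1 and Fn1, in mouse mesenchymal stem cells. Peaks were taken by position alone: a peak belonged to a gene's neighbourhood when its midpoint fell inside a fixed window of mm9, which was chr11:94750000-94860000 for Col1a1, chr6:4400000-4550000 for Col1a2, chr1:45300000-45460000 for Col3a1 and chr1:71580000-71750000 for Fn1. The windows are 110, 150, 160 and 170 kb long. They held 41 of the 37667 peaks in the lists of both replicates, 26 of 21507 in replicate 1 and 15 of 16160 in replicate 2.

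NR6A1, also called germ cell nuclear factor, was mapped by chromatin immunoprecipitation and sequencing (ChIP-seq), which recovers the DNA fragments a protein is fixed to. The cells were immortalized lines grown from single mesenchymal stem cells of C57BL/6 mice, with floxed and thus intact Dicer alleles (Dicer f/f, called Dicer WT). Both replicates carried a retrovirus for Flag-HA-NR6A1 and were immunoprecipitated with 5 µg of an antibody to HA after 10 min in formaldehyde. The receptor was therefore an added, tagged copy and not the cells' own, and the sources used here do not say how many clones the replicates came from. The labels also describe 2 libraries of the same cells with the empty retroviral vector and the same antibody. Values for these were not analysed here, so no background of the antibody stands beside the peaks, and no test between groups was possible. Peak lists hold no expression, so the cell type label was not checked against its markers.

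Fibrillar collagens are the rope-like proteins that give connective tissue its tensile strength. Col1a1 and Col1a2 encode the chains of type I collagen, the main protein of bone, skin and tendon, and Col3a1 encodes type III collagen, which assembles together with type I in elastic tissues. Fn1 encodes fibronectin, a glycoprotein that links cells to the matrix through integrins and on which collagen fibrils are laid down. All of these are typical products of fibroblasts and mesenchymal stromal cells. NR6A1 is an orphan nuclear receptor, known mainly as a repressor of transcription in differentiating embryonic cells and in germ cells. It is known to bind as a dimer to a direct repeat of the half-site AGGTCA with no spacer.

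The neighbourhoods of the type I collagen genes held the most peaks. In replicate 1, the Col1a1 window had 10 peaks and the Col1a2 window had 9. The Fn1 window had 4 and the Col3a1 window had 3. In replicate 2, the windows of Col1a1, Col1a2 and Fn1 had 4 each and that of Col3a1 had 3. The replicates therefore listed equal numbers at Col3a1 and Fn1, while replicate 1 listed 2.5-fold as many as replicate 2 at Col1a1 and 2.25-fold as many at Col1a2. Over the whole lists that ratio was 1.33. Across the 4 windows replicate 1 supplied 26 of the 41 peaks, or 63.4% (95% Wilson interval 48.1 to 76.4%, counting error only), an interval that holds the 57.1% of the whole lists. Its share was 71.4% (45.4 to 88.3%) at Col1a1 and 69.2% (42.4 to 87.3%) at Col1a2. Both of these intervals hold 57.1% as well.

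Each window was denser in peaks than the genome as a whole. In replicate 1 there were 90.9 peaks per Mb around Col1a1, 60.0 around Col1a2, 23.5 around Fn1 and 18.8 around Col3a1, against 8.10 over the assembled chromosomes. In replicate 2 there were 36.4, 26.7, 23.5 and 18.8 in the same order, against 6.08. The ratio to the whole list was thus 11.2 in replicate 1 and 5.98 in replicate 2 at Col1a1, 7.41 and 4.38 at Col1a2, 2.91 and 3.87 at Fn1, and 2.32 and 3.08 at Col3a1. Over all 4 windows together it was 4.81 ± 0.894 (SD, n = 2). The whole-list density was taken over full chromosome lengths, with or without genes. Windows around other genes were not compared, so the ratios do not set these genes apart from others.

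**Figure D1:**
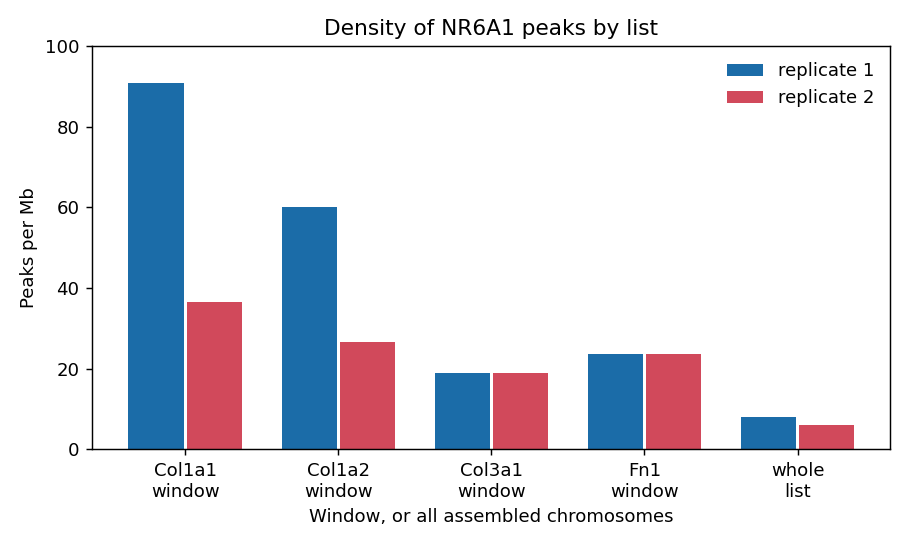
NR6A1 peaks per Mb in each window and over all assembled chromosomes (whole list), with 1 bar for each replicate and no error bar, since each bar is 1 list. All 4 windows stand above the whole list in both replicates, and the replicates differ most at Col1a1, with 90.9 and 36.4 peaks per Mb.

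To show how unusual such counts are, the chromosomes were divided into end-to-end tiles of each window's length. Tiles are a description of the lists and not a test, since the genes and windows were chosen with earlier results of these data known. Peaks gather in clusters elsewhere too, and tiles lie on a fixed grid that can split a cluster. Nor were the tiles limited to stretches that hold genes, as the windows do. In replicate 1, 0.192% of 23980 tiles of 110 kb held at least the 10 peaks of the Col1a1 window, and 1.15% of 17582 tiles of 150 kb held at least the 9 of the Col1a2 window. In replicate 2, 4.75% and 7.81% of those tiles held at least 4 peaks. The counts around Fn1 were commoner, reached by 14.4% of 15512 tiles of 170 kb in replicate 1 and 9.59% in replicate 2. Those around Col3a1 were reached by 19.8% of 16483 tiles of 160 kb and by 14.3%. The median tile of each length was empty in both lists, and 55.3 to 68.1% of tiles held no peak. Col1a1 in replicate 1 thus lay among the most crowded stretches of its length, whereas Col3a1 did not stand apart in either list.

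Whether the 2 replicates mark the same sites was asked next. A peak of one list counted as the partner of a peak in the other if they had 1 bp or more in common. The windows held 31 distinct regions, of which 10 were in both lists (32.3%), 16 belonged to replicate 1 alone and 5 to replicate 2 alone. No share of regions was computed over the whole lists, so 32.3% is not read as a trait of these windows. Of the 26 replicate 1 peaks, 10 had a partner, or 38.5% (95% Wilson interval 22.4 to 57.5%), against 42.7% of the whole list. Of the 15 replicate 2 peaks, 10 had a partner, or 66.7% (41.7 to 84.8%), against 56.0% of the whole list. Both intervals hold the share of the whole list. By gene, both lists had 3 regions in common at Fn1, 3 at Col1a2, 2 at Col3a1 and 2 at Col1a1. As a share of the regions in the window this was 60.0% of 5 at Fn1, 50.0% of 4 at Col3a1, 30.0% of 10 at Col1a2 and 16.7% of 12 at Col1a1. The window with the most peaks was the one in which the replicates had the smallest share in common. These shares rest on 4 to 12 regions each. They are also capped where the lists differ in length, as at Col1a1 and Col1a2, so their order partly restates the unequal counts. Of the replicate 2 peaks, 2 of 4 had a partner at Col1a1, 3 of 4 at Col1a2, 2 of 3 at Col3a1 and 3 of 4 at Fn1. Of the replicate 1 peaks, 2 of 10, 3 of 9, 2 of 3 and 3 of 4 had one, in the same order. In replicate 2, Col1a1 was thus still the lowest, but Col1a2 was level with Fn1. At Col1a1 the Wilson interval was 5.67 to 51.0% in replicate 1 and 15.0 to 85.0% in replicate 2. These hold the 42.7% and 56.0% of the whole lists, as do the intervals of the other windows. The low share at Col1a1 is therefore not read as a trait of that window.

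Each peak carries a score given by the authors' peak caller, read here as a log-transformed p-value that rises with the evidence for the peak. It depends on the depth and background of its own library, so it ranks peaks within a list. Both lists start just above 200, and their medians are 417 for replicate 1 and 394 for replicate 2. The 26 replicate 1 peaks of the windows had a median score of 423, and 13 of them exceeded the list median. The 15 replicate 2 peaks had a median of 312, and 6 exceeded the list median. A score of 1000 or more was reached by 8 of the 26 in replicate 1, or 30.8%, against 15.9% of the whole list. In replicate 2 it was reached by 1 of 15, or 6.67%, against 14.0% of the whole list. None of the 41 peaks came near 3100, the value that many of the top peaks of the lists have in common.

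**Figure D2:**
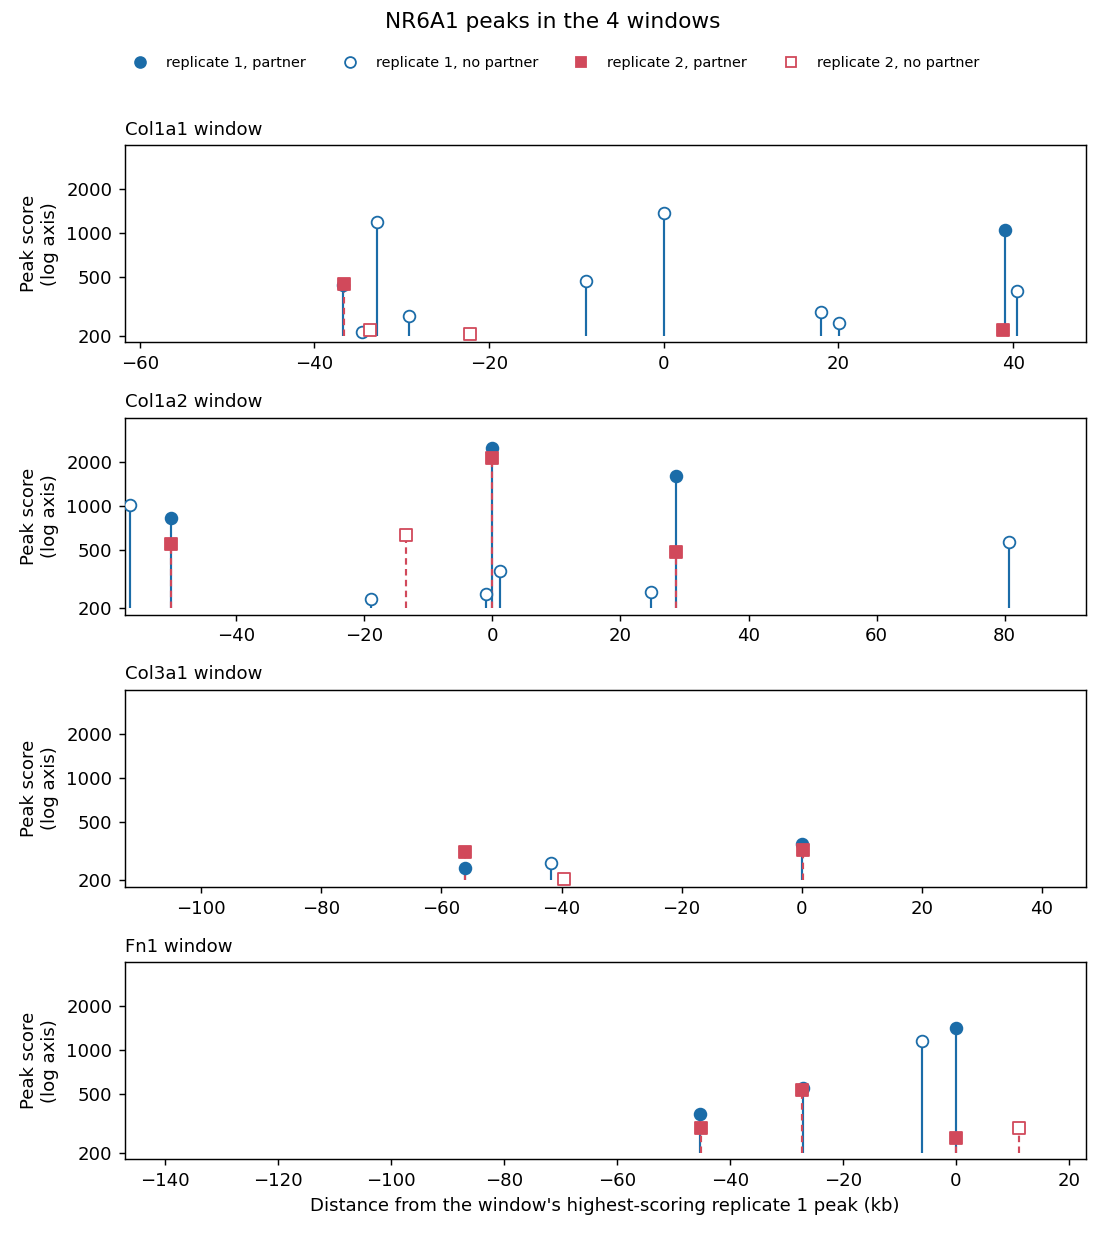
Score of every peak (log axis) against its distance in kb from the highest-scoring replicate 1 peak of its window, for the windows of Col1a1, Col1a2, Col3a1 and Fn1. Circles are replicate 1 and squares replicate 2, filled where the peak has a partner in the other list and open where it has none. The pair at 0 kb of the Col1a2 window, with scores of 2495.12 and 2121.84, is the one place where both lists exceed 1000.

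At Col1a2, the highest peaks of both lists coincided. The site lay at chr6:4456765-4458014 in replicate 1, where it scored 2495.12, and at chr6:4456702-4457912 in replicate 2, where it scored 2121.84. It ranked 486 in replicate 1 and 558 in replicate 2, within the top 2.26% and 3.45% of the lists. The peaks overlapped over 1148 bp, their midpoints lay 82.5 bp apart, and both were about as wide, at 1250 and 1211 bp. Replicate 1 had a smaller peak on each side of it, 96 bp before it with a score of 247.74 and 325 bp after it with a score of 356.38, so that 3 replicate 1 peaks and 1 replicate 2 peak spanned 2.66 kb. Neither of the flanking peaks had a partner. The edge of the first lay 33 bp from the replicate 2 peak and that of the second 427 bp.

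A second Col1a2 site in both lists, at chr6:4485808-4486463 in replicate 1 and chr6:4485842-4486409 in replicate 2, was the best aligned of all 10, with midpoints 10.0 bp apart. Its scores were far apart, however, at 1607.77 and 483.17, a ratio of 3.33. The third lay at chr6:4406263-4408032 in replicate 1, with a score of 826.29. At 1770 bp it was the widest of the 41 peaks, and 0.121% of the replicate 1 list was as wide. Its replicate 2 partner, at chr6:4406848-4407572 with a score of 544.48, lay wholly inside it.

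The 6 Col1a2 peaks of replicate 1 without a partner ranged from 229.48 to 1014.91, the highest being at chr6:4400495-4401084. That peak lay 0.495 kb inside the start of the window, and the next peak outside it, 13.4 kb before the start, had a score of 378.23. Another, at chr6:4537881-4538378 with a score of 567.66, was the most isolated, 51.5 kb from the nearest replicate 2 peak. The single replicate 2 peak without a partner was at chr6:4443638-4444143. Its score of 633.91 exceeded that of 2 of the 3 replicate 2 peaks with one, and the nearest replicate 1 peak was 4.87 kb away. Widening the window by 50 kb on each side added 4 peaks to each list, which brought replicate 1 from 9 to 13 and replicate 2 from 4 to 8. In all, the window thus had 1 site high in both lists, 1 high in replicate 1 and moderate in replicate 2, and several that only 1 list held.

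At Col1a1, replicate 1 had 3 peaks with a score above 1000 and replicate 2 had none. The highest was at chr11:94811369-94812054 with a score of 1384.33, within the top 8.97% of its list, and no replicate 2 peak lay within 21.6 kb of it. The next, at chr11:94778429-94779402, scored 1189.26. The nearest replicate 2 peak, at chr11:94777764-94778306 with a score of 219.22, ended 122 bp before it and so was not counted as a partner. The last, at chr11:94850211-94851333, scored 1062.76 and did have a partner, at chr11:94850173-94850866, whose score of 218.08 was near the minimum of the replicate 2 list. That pair had a ratio of 4.87. None of the 3 was thus matched by a peak of like rank in replicate 2.

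The other Col1a1 site in both lists was even. It lay at chr11:94774668-94775403 in replicate 1 and chr11:94774847-94775423 in replicate 2, with scores of 444.89 and 450.24, both near the middle of their lists. This pair opened the group with the most peaks among those with gaps of at most 4 kb in the 4 windows, in which 4 replicate 1 and 2 replicate 2 peaks lay within 8.09 kb, at chr11:94774668-94782759. All 10 replicate 1 peaks of the window had another replicate 1 peak with its midpoint within 10 kb, whereas 2 of the 4 replicate 2 peaks had a neighbour in their own list. The lowest replicate 1 score was 210.81, at chr11:94777006-94777370. The lowest replicate 2 score was 204.26, at chr11:94789261-94789738, which had no partner. The crowding ran past the window's edges in replicate 1 but not in replicate 2: widening the window by 50 kb on each side added 5 peaks to replicate 1 and 0 to replicate 2. The replicate 1 peak just outside, 7.54 kb before the start, had a score of 554.61, and the one 10.6 kb past the end had 350.49.

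At Fn1, the lists agreed in number and for the most part in place. The site with the most even scores lay at chr1:71699657-71700437 in replicate 1, with 552.66, and chr1:71699301-71700341 in replicate 2, with 534.23, and stood in the top 36.3% and 35.0% of the lists. It was the highest replicate 2 peak of the window. A weaker pair lay at chr1:71681631-71682031 in replicate 1 and chr1:71681646-71682162 in replicate 2, with scores of 364.42 and 292.71. The highest replicate 1 peak, at chr1:71726694-71727456 with a score of 1418.23, had the lowest replicate 2 peak of the window as its partner, at chr1:71726885-71727459 with 249.64. Its ratio of 5.68 was the largest of the 10 pairs.

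The remaining Fn1 peak of replicate 1, at chr1:71720773-71721299 with a score of 1164.54, had no partner, and the nearest replicate 2 peak was 5.58 kb away. The remaining one of replicate 2, at chr1:71737998-71738540 with a score of 294.68, had none either. All 8 peaks lay in the later part of the window, from 102 kb after its start. A replicate 2 peak with a score of 942.16, at chr1:71578087-71578725, lay 1.59 kb before the start and so was left out by the rule. It exceeded the 4 replicate 2 peaks inside, and the nearest replicate 1 peak before the window was 430 kb from the start. Widening the window by 50 kb on each side added 2 peaks to replicate 2, for 6 in all, and 0 to replicate 1.

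At Col3a1, all peaks were weak. The 3 of replicate 1 ranged from 241.90 to 351.93 and the 3 of replicate 2 from 205.26 to 322.45, and none reached the median of its list. A pair at chr1:45412301-45413168 in replicate 1 and chr1:45412693-45413286 in replicate 2 scored 351.93 and 322.45. Another at chr1:45356429-45356787 in replicate 1 and chr1:45356361-45356952 in replicate 2 scored 241.90 and 312.41, the larger of the 2 cases in which replicate 2 was higher. The middle peak of each list, at chr1:45370846-45371243 with 262.56 and at chr1:45372928-45373418 with 205.26, missed the other by 1.68 kb. Widening it by 50 kb on each side added no peak to either list.

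Replicate 1 had the higher score in 8 of the 10 partner pairs, against 49.7% of the 9223 pairs in the whole lists. On the log2 scale the score of replicate 1 relative to that of replicate 2 had a median of 0.28 (SD over pairs 1.03, range -0.37 to 2.51), against 0.00 (SD 1.12) over all pairs. The quartiles of all pairs were -0.67 and 0.71 and enclose that median of 0.28. With 10 pairs, the difference is not read as a trait of the windows. Scores were within 2-fold in 7 of 10 pairs, against 65.4% of all pairs. The other 3 were all higher in replicate 1 and were 1 pair each at Fn1, Col1a1 and Col1a2. Midpoints of the 10 pairs lay a median of 89.75 bp apart, against 37.5 bp over all pairs. Unequal depth or background of the libraries enters these ratios, and its part was not tested.

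**Figure D3:**
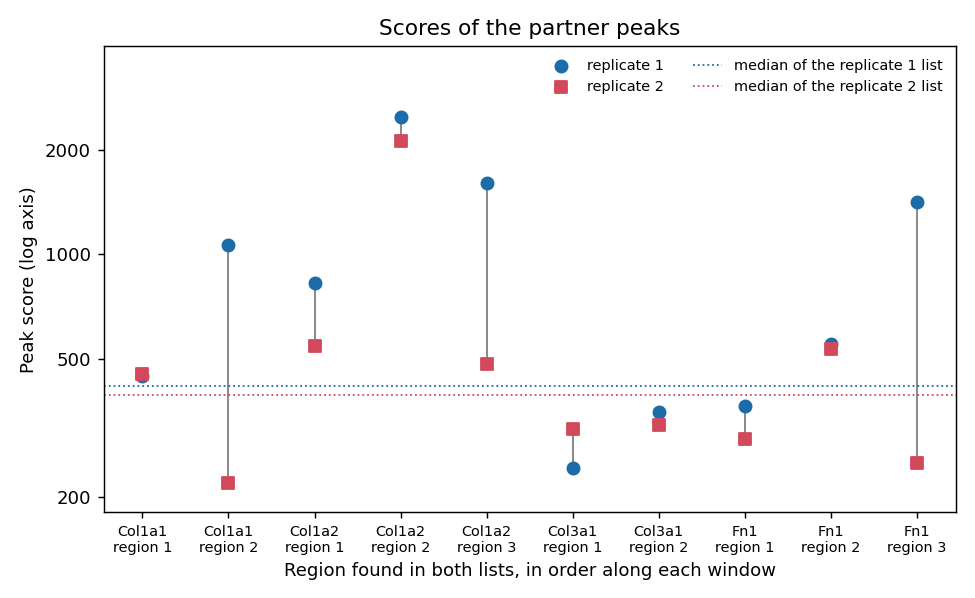
Scores (log axis) of the partner peaks in the 10 regions found in both lists, in order along each window, with replicate 1 as circles, replicate 2 as squares and dotted lines at the median of each whole list. Of the pairs, 7 lie within 2-fold, and the longest lines, at region 3 of Fn1 and region 2 of Col1a1, join scores of 1418.23 and 249.64 and of 1062.76 and 218.08.

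Peaks with a partner had the higher median score in both lists. In replicate 1 the 10 with a partner had a median of 689 and the 16 without one 323, and over the whole list the medians were 521 and 363. In replicate 2 the 10 with a partner had a median of 386 and the 5 without one 219, against 510 and 314 over the whole list. High scores in replicate 1 did not always come with a partner, though. Of its 8 peaks at 1000 or more, 4 had none, namely 2 at Col1a1, 1 at Col1a2 and 1 at Fn1, and 37.8% of such peaks in the whole list had none. Peak widths were ordinary, with a median of 538 bp in replicate 1 and 575 bp in replicate 2, against 538 and 613 bp over the lists.

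Which gene a peak belongs to, and whether it lies at a promoter, in an exon or intron or between genes, was not analysed here, because the gene table at hand is of build GRCm38 and positions were not moved between builds. In that table the next protein-coding gene after Col1a1 is Sgca, which encodes a muscle membrane protein, Col1a2 has Bet1 before it and Casd1 after it, Col3a1 has Col5a2, the gene of another fibrillar collagen chain, after it, and Fn1 has Atic before it and Mreg after it. Peaks in the windows may therefore lie nearer to one of these than to the gene that names the window. RefSeq promoter sequences of GRCm38, from 250 bases before to 50 after a gene's start, were at hand for Col1a2 and Col3a1. Searched on both strands, neither held AGGTCA, which 16.3% of 32851 promoters hold, nor the longer TCAAGGTCA, which contains it and which 0.423% hold, nor the direct repeat of AGGTCA with no spacer, which 2 promoters hold. The sequences under the peaks were not analysed here.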

How the data were processed

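Bowtie 0.12.7, MACS and build mm9 are named, without roles, in the submitters' processing notes; the version of MACS, the control library and the peak threshold are not given in the sources used here. The authors deposited a separate peak list per NR6A1 replicate, called on that sample and not on a pool. Each peak has a position and a score, the deposited unit, read as a log-transformed p-value from its range. Read depth is unknown from the lists. Starts are printed with the first base as 1. Peaks were placed by midpoint, and partners found by overlap, in Python 3.11.15 with numpy 2.4.6, pandas 2.3.3 and scipy 1.17.1; the overlap code was tested on simulated lists. Chromosome lengths came from GenomeInfoDb 1.38.1. Genes and windows were chosen with earlier results of these data known. The text names the 4 genes, every region in both lists, and the highest and lowest other peaks; further peaks, the score of 1000, the clusters, the neighbouring genes and the promoter search were chosen after values were seen. No statistical test was made. Positions against gene starts, motifs in peaks and a list of other matrix genes needed an mm9 annotation or sequence and were not run.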

Additional observations from a re-analysis of the deposited data

How the results depend on the processing

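With each list reduced to its upper 50% of scores there remained 13 of the 26 replicate 1 peaks, 6 of the 15 replicate 2 peaks and 5 of the 10 regions in both lists, by construction of fewer peaks. The other 27 of the 30 values recomputed moved by less than 1.5-fold (counts), 1 SD or their Wilson interval. These covered any overlap with the window, windows wider by 50 kb or narrower by 20 kb, autosomes as background, a reciprocal overlap of 50%, midpoints within 100 or 500 bp and removal of scores at or above 3100. That removal could not change the peaks in the windows, whose highest score was 2495.12, so it is no check of them. The density ratio of the windows ranged from 3.93 with wider to 5.31 with narrower windows, against 4.81. Regions in both lists numbered 7 with midpoints within 100 bp and 9 with a reciprocal overlap of 50%. Leaving out 1 replicate gave 15 to 26 peaks, a density ratio of 4.18 to 5.44 and a median score of 312 to 423. It leaves no partner to count. With 2 lists, leaving out 1 always moves a mean by less than 1 SD. For the density ratio and the median score, staying within that limit was therefore fixed in advance. No paired analysis was possible because the vector libraries were not analysed here. Without reads per peak, absence from a list may mean a site barely short of the caller's threshold.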
